A study of Mus musculus with 42 samples.

Results

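The genes described here encode the proteins of the mitochondrial ribosome in mouse liver. They were taken as all protein-coding genes whose symbol starts with Mrpl or Mrps and a digit and that had at least 10 counts in at least 10 of the 42 mice, which gave 74 of the 54446 genes in the count table. Of these, 46 carry an Mrpl and 28 an Mrps symbol. By the structure of the ribosome, 48 belong to the large subunit, among them Mrps30 and Mrps18a in spite of their symbols, and 25 to the small subunit. Mrps36 carries the symbol but is known as a component of the 2-oxoglutarate dehydrogenase complex and not of the ribosome.

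Liver RNA was sequenced in female APOE*3-Leiden mice, which carry a human apolipoprotein E transgene, with 1 library per mouse taken at 32 weeks. The 10 chow mice received maintenance chow throughout. The 16 WTD mice, aged 8 to 14 weeks at the start, received a Western-type diet with 15% cocoa butter, 40.5% sucrose and 1% cholesterol, first for a run-in of 3 weeks and then for the 32 weeks, with 0.05% sodium cholate added from week 22. The 16 WTD+Atorvastatin mice were treated alike and also received atorvastatin mixed into the diet, at 3.0 mg/kg/day and from week 5 at 4.5 mg/kg/day. All groups carry the transgene and all are female, and chow mice differ from the other groups in the whole diet including cholate.

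Mitochondria keep a small genome of their own, and its messenger RNAs, which encode core subunits of the respiratory chain, are translated only by the mitochondrial ribosome. The ribosomal RNAs come from mitochondrial DNA, while all ribosomal proteins are encoded in the nucleus, made in the cytosol and imported. Many of the proteins have bacterial counterparts, and others are found only in mitochondria. Hepatocytes are rich in mitochondria.

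Total counts on genes ranged from 15661381 to 36224054 read pairs per mouse. Levels are given as CPM, which are counts relative to the library total, after scaling the libraries by TMM, a method that sets the bulk of genes equal between libraries. Libraries differed in how many weak genes they captured: the share of genes at 1 to 2 CPM in their group that had no count at all was over 20% in 9 libraries, 3 from chow, 5 from WTD and 1 from WTD+Atorvastatin mice. The markers of hepatocytes were abundant in all groups, with summed levels of 9 genes from 53810 to 165600 CPM.

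A further 4 genes with such a symbol, Mrpl2, Mrpl33, Mrpl53 and Mrps6, had 0 counts in all 42 mice and are not among the 74. Of the exon bases of Mrpl2 and Mrpl53, 100% lie within another annotated gene on the same strand, Gm26904 and Gm42688, and of those of Mrpl33 and Mrps6 99.96% and 97.0% do. These shares include the introns of the covering genes. With their exons alone, the share was 0% for Mrpl2 and 3.6% for Mrpl33, and the cause of the 0 counts was not tested. The genes that cover these 4 genes had few counts themselves, with 4832 for Gm26904, 943 for Gm42688 and 209 for Gm43809, which covers Mrpl33, over all mice. For these 4 genes a count of 0 cannot be read as absence of expression. Part of the exon bases was also shared with a gene on the same strand for some of the 74 genes, so their levels are uncertain. Among them the share was 37.0% for Mrps34 with Nme3, 23.2% for Mrps18c with Gm43511, 15.4% for Mrps24 with Urgcp and 3.7% for Mrpl3 with Gm38077. For Mrps25, 69.8% of the exon bases overlap Nr2c2 on the opposite strand. The libraries were strand-specific, but the strand setting of the counting is not given in the sources used here.

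Promoters are shown for 5 of the genes, since they carry, or lack, the short motifs by which nuclear genes for mitochondrial proteins are commonly recognized. The windows run from 120 bases before to 30 bases after the RefSeq start of the transcript in GRCm38.p6, 5′ to 3′ on the strand of the gene, and capitals mark matches to the motifs searched. They are those of Mrps27 (chr13:99344666-99344815, plus strand), Mrps25 (chr6:92183994-92184143, minus strand), Mrps26 (chr2:130563637-130563786, plus strand), Mrpl57 (chr14:57826119-57826268, plus strand) and Mrps18a (chr17:46110884-46111033, plus strand).
Mrps27: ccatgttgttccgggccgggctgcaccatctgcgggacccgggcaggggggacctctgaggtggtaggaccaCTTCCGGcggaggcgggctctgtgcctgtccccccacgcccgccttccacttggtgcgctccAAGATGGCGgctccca
Mrps25: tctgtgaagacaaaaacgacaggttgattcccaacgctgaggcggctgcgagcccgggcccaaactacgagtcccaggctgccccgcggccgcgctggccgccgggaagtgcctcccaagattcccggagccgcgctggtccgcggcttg
Mrps26: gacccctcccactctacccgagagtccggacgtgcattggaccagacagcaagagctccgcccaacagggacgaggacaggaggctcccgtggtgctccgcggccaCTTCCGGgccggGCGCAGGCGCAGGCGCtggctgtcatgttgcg
Mrpl57: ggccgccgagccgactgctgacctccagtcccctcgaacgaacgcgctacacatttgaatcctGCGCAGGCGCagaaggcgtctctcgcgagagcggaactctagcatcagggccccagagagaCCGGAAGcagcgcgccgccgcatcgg
Mrps18a: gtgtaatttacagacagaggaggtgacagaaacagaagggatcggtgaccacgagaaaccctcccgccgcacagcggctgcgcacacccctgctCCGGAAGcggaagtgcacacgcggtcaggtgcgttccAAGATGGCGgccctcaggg

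The motifs searched on both strands were GCGCA and GCGC with any 1 base between them for NRF1, CCGGAAG for the ETS family with GABPA, and AAGATGGCG for YY1, all of them known regulators of nuclear genes for mitochondrial proteins. The ETS letters end as the YY1 letters begin, so 1 stretch can match both. In the window of Mrps26, 2 NRF1 matches overlap. The RefSeq promoter table, with windows of 250 bases before to 50 after the start, held 69 windows for 65 of the 74 genes. An NRF1 match was present in 18.8% of these windows, against 4.603% of all 32851 windows in the table and 8.66% of the 14706 windows of tested genes. For the ETS motif the shares were 34.8%, 8.86% and 15.4%, and for YY1 11.6%, 1.40% and 2.51%. At least 1 of the 3 motifs was found in 56.5% of the windows of these genes, in 13.6% of all windows and in 24.0% of those of tested genes. The median GC content of the windows was 58.0%, 52.7% and 59.7% in the same order. Among the printed windows, Mrps27 and Mrps18a each hold an ETS and a YY1 match, Mrps26 and Mrpl57 an ETS and an NRF1 match, and Mrps25 none. A match is only a match of letters, and binding was not measured.

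Per kilobase of exon, the highest level over all groups was that of Mrpl12, which forms the flexible stalk to which translation factors bind, with 63.3 CPM per kilobase. Mrpl18, a protein of the central protuberance, followed with 48.6 and Mrpl14 with 47.8 CPM per kilobase. The lowest level was that of Mrps25 with 2.43, after Mrpl19 with 2.90 and Mrpl47, a protein at the exit of the nascent chain, with 2.97 CPM per kilobase. With the length of the main transcript in place of all exons, a choice made after the data were seen, Mrpl12 stayed first and Mrpl47, Mrpl19 and Mrps25 stayed last, while Mrpl18 ranked 7. The order thus depends in part on the length used.

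**Figure D1:**
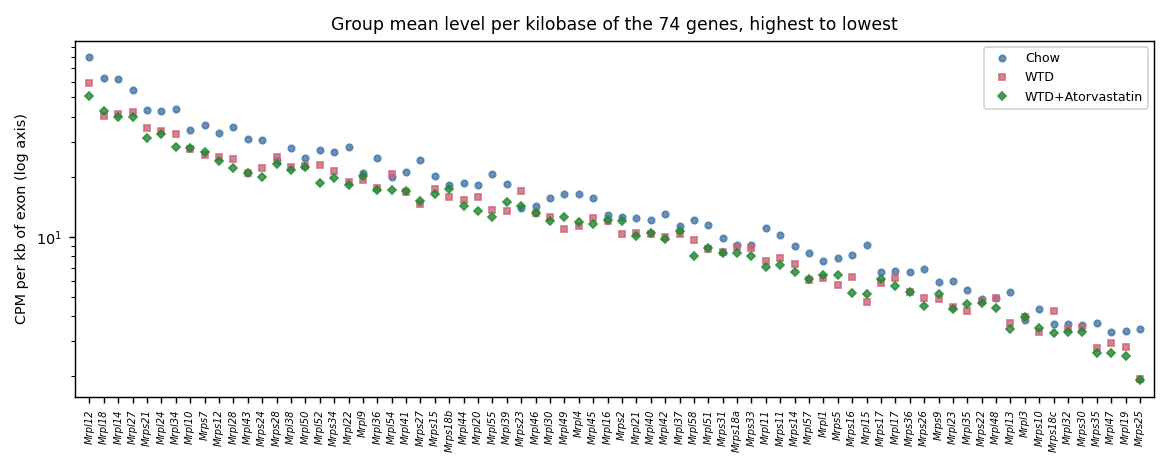
Mean level of each of the 74 genes in CPM per kilobase of exon (log axis) in the chow, WTD and WTD+Atorvastatin mice, ordered by the mean over the groups. Mrpl12 is first with 63.3 and Mrps25 last with 2.43, and the genes span a wide range on the log axis.

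The first comparison asked how the diet changed these genes. On WTD, 35 of the 74 genes were lower than on chow and 0 were higher, at a threshold of 0.01 for the p-value of edgeR's quasi-likelihood test, adjusted by Benjamini-Hochberg over 15574 genes. Of all tested genes 16.0% were called lower and 17.5% higher, 33.5% in all. The median log2 fold change of the 74 genes was -0.32 against 0.03 over all tested genes, 68 of the 74 were below 0, and the values ran from -0.95 for Mrpl15 to 0.28 for Mrps23. For 20 genes each of the 16 WTD mice was below the chow median, a pattern whose share over all tested genes was not computed. The size and count of these changes depend on the scaling: with total counts in place of TMM, chosen after the data were seen, 4 genes were lower and 3 higher, and 35 of the 74 fold changes were above 0, among them 2 of the called genes, Mrpl1 and Mrpl30. That scaling moved the median of all tested genes to 0.34. Relative to the median of all genes the 74 genes stood at -0.35 under both scalings. A change of scaling shifts all genes about alike, so this equality was fixed in advance and cannot show whether the fall depends on the scaling.

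**Figure D2:**
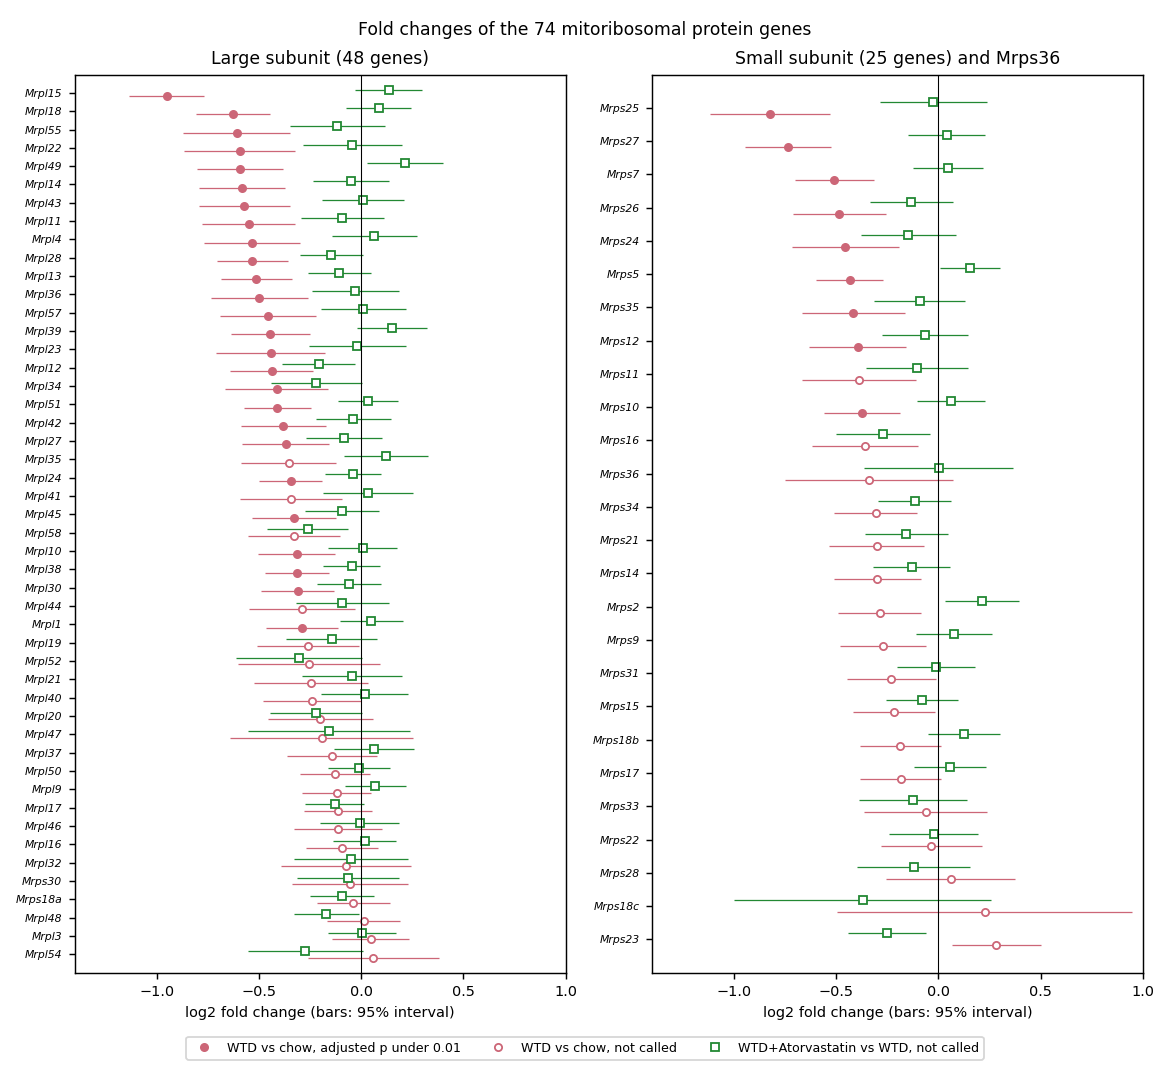
Log2 fold change of each gene with its 95% interval for WTD against chow (circles) and WTD+Atorvastatin against WTD (squares), filled where the adjusted p of edgeR was under 0.01. For WTD against chow 35 circles are filled, all to the left of 0, and no square is filled.

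Summed over the 74 genes, levels in chow mice ran from 2456 to 3194 CPM with a median of 2825, in WTD mice from 1981 to 2524 with a median of 2211, and in WTD+Atorvastatin mice from 1875 to 2439 with a median of 2163 CPM. The WTD+Atorvastatin mice all lay below the lowest chow mouse, and 1 of the 16 WTD mice lay above it. As a share of all counts without further scaling, the genes took 0.226% to 0.288% in chow (median 0.248%), 0.212% to 0.277% in WTD (median 0.243%) and 0.190% to 0.243% in WTD+Atorvastatin mice (median 0.211%). On this unscaled measure chow and WTD overlapped almost entirely. The TMM factors differed between groups, with means of 0.885 in chow, 1.10 in WTD and 0.984 in WTD+Atorvastatin mice.

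**Figure D3:**
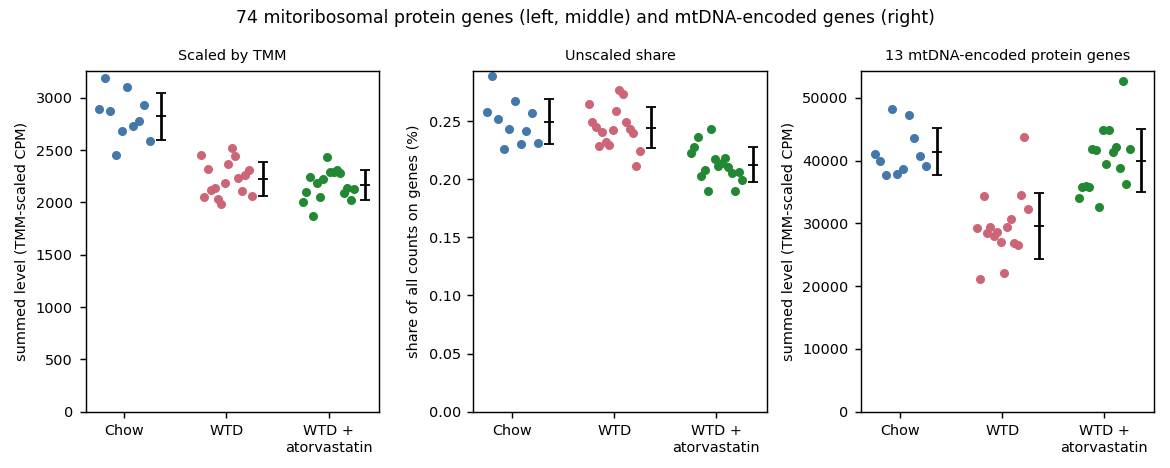
Each point is a mouse, with mean and SD beside each group: the summed level of the 74 genes in TMM-scaled CPM (left), their share of all counts in percent (middle) and the summed level of the 13 mtDNA-encoded protein genes in CPM (right). On the left the medians are 2825 CPM in chow and 2211 CPM in WTD mice, and in the middle 0.248% and 0.243%.

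In the large subunit 26 of 48 genes fell on WTD, with a median log2 fold change of -0.33, where 16.0% of all tested genes were called lower. Mrpl15, which lies in the core of the large subunit, ran from 64.2 to 96.1 CPM in chow mice (median 75.03), from 28.9 to 63.2 in WTD mice (median 39.2) and from 32.4 to 57.8 in WTD+Atorvastatin mice (median 43.9). No chow mouse overlapped a mouse of the other groups. By edgeR it was lower on WTD by a log2 fold change of -0.95 ± 0.094 (SE, adjusted p = 2.8e-12). Of all tested genes, 2.43% had every WTD mouse below every chow mouse and 3.4% every WTD mouse above, and of the 74 genes 2 and 0 did.

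Mrpl18 showed 67.8 to 96.1 CPM in chow (median 90.2) and 38.8 to 71.1 in WTD mice (median 58.2). The groups overlapped only between the highest WTD mice and the lowest chow mice, and edgeR gave a log2 fold change of -0.63 ± 0.092 (SE, adjusted p = 1.2e-07). Mrpl28, another protein with a bacterial counterpart, ran from 36.6 to 64.3 CPM in chow (median 46.8) and from 27.5 to 39.6 in WTD mice (median 33.3), a log2 fold change of -0.53 (adjusted p = 1.5e-06). Mrpl55 fell by 0.61 on the log2 scale (adjusted p = 0.00017). Mrpl12 ran from 90.4 to 145.9 CPM in chow (median 124.2) and from 69.4 to 114.0 in WTD mice (median 90.6), a log2 fold change of -0.44 (adjusted p = 0.00041). Its partners at the base of the stalk, Mrpl10 and Mrpl11, fell by 0.32 and 0.55 (adjusted p = 0.0063 and 9.7e-05). All 3 stalk genes were thus called lower, as were 47.3% of the 74 genes and 16.0% of all tested genes. The call of Mrpl10 was lost under 6 of 12 alternatives and without any 1 of 6 mice, and its adjusted p was 0.027 without chow replicate 6.

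Of the 74 genes 47.3% and of all tested genes 16.0% were called lower on WTD. Whether parts of the ribosome differ in this was not tested. Around the tunnel by which the nascent chain leaves the ribosome, 4 of 6 genes fell. Mrpl45, which holds the ribosome at the inner membrane, was among them at -0.33 (adjusted p = 0.0085). This call was lost under 8 of 12 alternatives and without any 1 of 13 mice, and the value was -0.24 (adjusted p = 0.047) without chow replicate 6 and -0.041 without the 9 libraries that missed many weak genes. Of the central protuberance, 2 of 5 genes fell, and of the large subunit proteins with a bacterial counterpart 18 of 28, with a median of -0.36. The proteins found only in mitochondria gave 8 of 20 with a median of -0.30. Mrpl58, a release factor that became part of the ribosome, was not called at -0.33 (adjusted p = 0.016), nor were Mrps30 at -0.05 and Mrps18a at -0.04. Mrps18a ran from 25.0 to 49.1 CPM in chow and from 25.7 to 45.8 in WTD mice, with medians of 32.6 and 32.5.

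In the small subunit 9 of 25 genes fell on WTD, with a median of -0.30, where 16.0% of all tested genes were called lower. Mrps27, a protein specific to mitochondria, ran from 45.4 to 61.6 CPM in chow (median 49.8), from 11.7 to 41.3 in WTD mice (median 31.4) and from 23.8 to 44.7 in WTD+Atorvastatin mice (median 31.9). No chow mouse overlapped either group, and edgeR gave -0.73 ± 0.11 on WTD (SE, log2 scale, adjusted p = 1.1e-07). The lowest value, 11.7 CPM, belonged to 1 of the 9 libraries that missed many weak genes. Mrps25 ran from 15.5 to 31.4 CPM in chow (median 22.2) and from 7.16 to 20.4 in WTD mice (median 12.9), or -0.82 ± 0.15 on the log2 scale (SE, adjusted p = 8.0e-06). It had the lowest level per kilobase and the second largest fall. Mrps7 followed at -0.51 (adjusted p = 2.4e-05), Mrps26 at -0.49 (adjusted p = 0.00051) and Mrps12, a protein of the decoding centre, at -0.40 (adjusted p = 0.0061). Mrps12 was called under only 8 of 12 alternatives. Its call was also lost without any 1 of 8 mice, with an adjusted p of 0.027 without chow replicate 2.

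Among small subunit genes that were not called, Mrps23 stood highest at 0.28 (95% interval 0.06 to 0.50, edgeR adjusted p = 0.034). It ran from 17.4 to 27.5 CPM in chow and from 16.9 to 41.2 in WTD mice. Mrps28 was at 0.06, and none of the 3 paralogues of bacterial S18 was called, with Mrps18a at -0.04, Mrps18b at -0.19 and Mrps18c at 0.23. In CPM without regard to length, Mrps18c was the lowest of the 74 genes, from 0.064 to 9.66 CPM in chow mice. Its interval of -0.50 to 0.95 covered large changes both ways. Mrps36, not a ribosomal protein, was at -0.34 (adjusted p = 0.19).

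**Figure D4:**
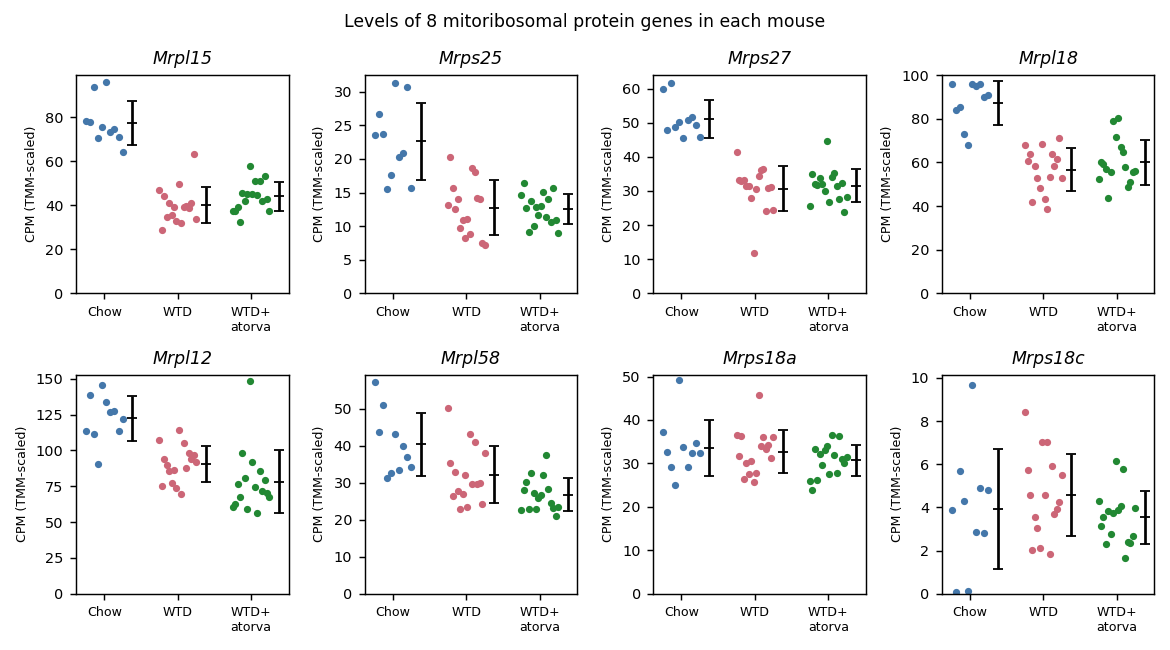
Level of 8 genes in each mouse (CPM, TMM-scaled), with mean and SD beside each group. Chow points lie above all others for Mrpl15 and Mrps27, overlap slightly for Mrpl18, and mix with the other groups for Mrps18a and Mrps18c.

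The second comparison asked what atorvastatin changed on the same diet. Of the 74 genes, 0 were called in WTD+Atorvastatin against WTD mice by edgeR, while 7.1% of all tested genes were, 4.84% higher and 2.26% lower. In none of the 74 did all treated mice lie above all WTD mice, as they did in 0.00642% of tested genes. Before adjustment, p was below 0.05 for 8 of the 74, or 10.8%, and for 24.5% of all tested genes. Of the calls over all genes 68.2% were higher, a share that was 54.9% with RLE scaling, 50.9% with DESeq2 and 24.4% with total counts. DESeq2 called 0 of the 74, limma-voom with sample weights called 2 higher, Mrps2 and Mrps5, and total-count scaling 6 lower, among them Mrpl12, Mrpl58 and Mrps23. The median log2 fold change was -0.04 against 0.00 over all tested genes, with 26 genes above 0 and a range from -0.37 for Mrps18c to 0.21 for Mrps2. The 95% intervals had a median half-width of 0.19, and for 69 of the 74 genes the interval lay within -0.5 and 0.5 on the log2 scale. Differences smaller than these half-widths were not detectable here. Some larger ones also went uncalled, since calls needed an adjusted p under 0.01, as for Mrps23 with an interval of -0.44 to -0.06.

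Mrps23 and Mrpl58 had the smallest adjusted p, at -0.25 (edgeR adjusted p = 0.076) and -0.26 (adjusted p = 0.079). Mrps2 had a median of 29.9 CPM in WTD and 35.2 in WTD+Atorvastatin mice, with 15 of 16 treated mice above the WTD median, at 0.21 (adjusted p = 0.13). Mrpl49 was at 0.21 (adjusted p = 0.14) and Mrps16 at -0.27 (adjusted p = 0.13). Mrpl12 ran from 56.6 to 148.1 CPM in treated mice, with a median of 73.2, and was at -0.21 (adjusted p = 0.14). A single treated mouse, replicate 8, held the value of 148.1 CPM, and without it the fold change was -0.30 with an adjusted p of 0.0056. Its library was also 1 of the 9 that missed over 20% of weak genes, and without these 9 Mrpl12 was at -0.30 with an adjusted p of 0.0037. Under the other alternatives except total-count scaling Mrpl12 was not called, with adjusted p from 0.017 to 0.34.

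The third comparison set WTD+Atorvastatin against chow, using the same chow mice as the first. Here 39 of the 74 genes were lower and 0 higher, against 10.7% of all tested genes lower and 14.2% higher, and the median log2 fold change was -0.38 against 0.04. Both comparisons with chow called 32 genes, and 32 were called in neither. Mrpl1, Mrpl10 and Mrpl39 were called only on WTD, and Mrpl20, Mrpl58, Mrps11, Mrps14, Mrps16, Mrps21 and Mrps34 only with atorvastatin. None of these 10 was called by edgeR with TMM between the treated and untreated mice, while Mrpl58 and Mrps16 were lower there with total-count scaling (adjusted p = 0.0026 and 0.0077). Some of the 10 missed the second call only narrowly. Mrpl10 was at -0.31 in treated mice against chow (edgeR adjusted p = 0.0101), and Mrps34 at -0.31 on WTD (adjusted p = 0.012). Others did not, such as Mrpl20 at -0.20 on WTD (adjusted p = 0.22). In the treated mice Mrpl15 was at -0.82 (edgeR adjusted p = 6.1e-10), Mrps25 at -0.85 (adjusted p = 8.0e-06), Mrps27 at -0.69 (adjusted p = 7.4e-07) and Mrpl28 at -0.68 (adjusted p = 1.5e-08). Mrpl13 was at -0.62 (adjusted p = 1.4e-07), and with Mrpl15 and Mrps27 made up the 3 genes entirely below chow, where 1.5% of all tested genes were, and 0 of the 74 were entirely above, where 2.88% of tested genes were.

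Other parts of the mitochondrial translation machinery were set beside these genes. Of 5 ribosomal proteins with other symbols, 3 fell on WTD with a median of -0.33: Dap3 (-0.33, edgeR adjusted p = 0.0021), Aurkaip1 (-0.41, adjusted p = 0.00056) and Gadd45gip1 (-0.61, adjusted p = 0.00017). Of 26 genes for ribosome assembly and maturation of ribosomal RNA, 5 fell and 1 rose, a share of falls near the 16.0% of all tested genes. The one that rose was Fastkd2 (0.57, adjusted p = 0.00053), which helps to mature the large ribosomal RNA, while Rbfa, an assembly factor of the small subunit, fell (-0.40, adjusted p = 0.00038). Of 15 translation factors 4 fell, among them Tufm, the elongation factor that brings transfer RNA (-0.58, adjusted p = 5.8e-10). Of 20 genes for charging of transfer RNA 4 fell, again near the share of all genes, and of 12 for transcription and replication of mitochondrial DNA 3 fell.

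Atorvastatin against WTD called few of these. Lrpprc, which stabilizes mitochondrial messenger RNA, rose (0.33, edgeR adjusted p = 0.0019), and so did Yy1 (0.28, adjusted p = 0.0039) among 10 regulators of mitochondrial biogenesis. On WTD only Myc of these regulators was called, higher at 0.81 (adjusted p = 0.00093). The regulators whose motifs were searched were not called on WTD, with Nrf1 at -0.09, Gabpa at -0.25 and Yy1 at -0.23. Neither was Ppargc1a at -0.19. Before adjustment, the p of edgeR was below 0.05 for 7 of the 10 regulators, and for 50.1% of all tested genes. The 10 regulators had a median of -0.21, with 7 below 0 and 3 above, so not called does not mean unchanged. By call on WTD, NRF1 letters were in 23.3% of 30 called and 17.1% of 35 uncalled genes, ETS letters in 33.3% and 40.0%, and YY1 letters in 13.3% and 11.4%.

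The RNAs that the ribosome contains or translates were measured in the same libraries, though polyadenylated RNA was selected. The mitochondrial ribosomal RNA mt-Rnr1 ran from 1668 to 2665 CPM in chow, from 1017 to 1556 in WTD and from 1006 to 2016 CPM in WTD+Atorvastatin mice. It fell on WTD (-0.73, edgeR adjusted p = 2.3e-09) and rose with atorvastatin (0.31, adjusted p = 0.0066), a call that was lost without any 1 of 12 mice, with an adjusted p of 0.016 without WTD+Atorvastatin replicate 16. The other ribosomal RNA, mt-Rnr2, fell on WTD (-0.58, adjusted p = 1.3e-05) and was not called with atorvastatin (0.26, adjusted p = 0.068). Of 12 tested mtDNA-encoded protein genes, 9 fell on WTD (median -0.61). In treated against WTD mice they split, with 7 above and 5 below 0 and quartiles of -0.47 and 0.43, and 6 rose, such as mt-Cytb (0.46), while mt-Co3 (-0.58) fell. Of 92 nuclear genes of the respiratory chain 69 fell and 1 rose on WTD (median -0.53), with 3 higher and 1 lower under atorvastatin (median 0.00). Of the proteins of the cytosolic ribosome, 8 of 78 were higher and 3 lower on WTD (median 0.07), and 0 higher and 40 lower with atorvastatin (median -0.31). Over all tested genes, 16.0% were called lower and 17.5% higher on WTD, and 2.26% lower and 4.84% higher with atorvastatin. With total-count scaling the median of all tested genes moved to 0.34 on WTD and to -0.16 with atorvastatin, so directions within these shifts depend on the scaling. Whether these lists differ from the 74 genes was not tested.

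**Figure D5:**
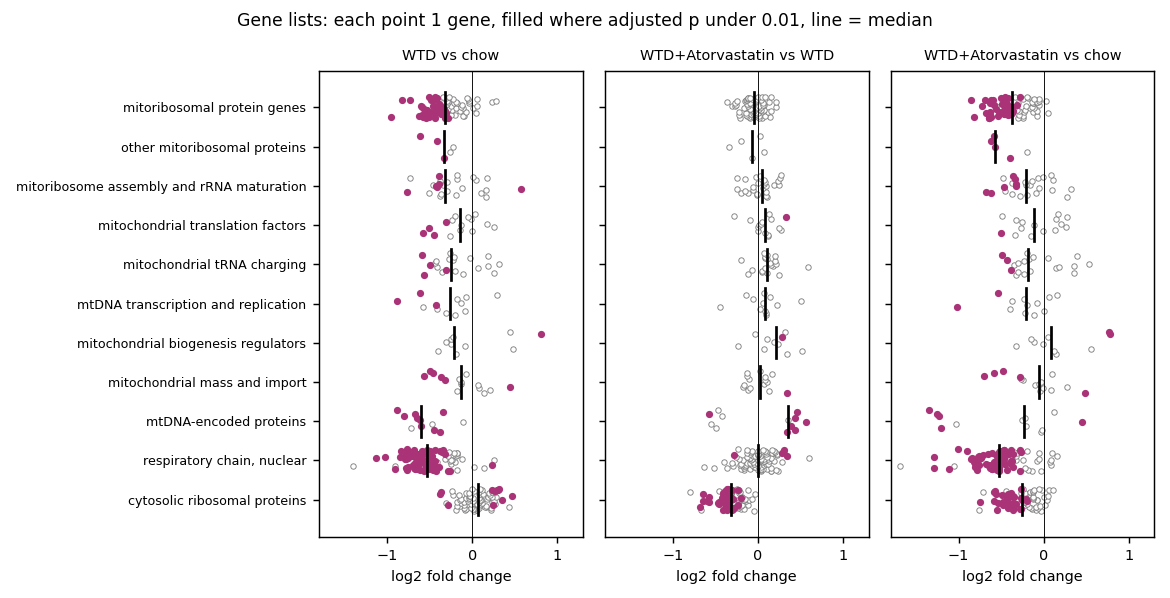
Log2 fold changes of the genes of 11 lists in the 3 comparisons, each point a gene, filled where the adjusted p of edgeR was under 0.01, with a line at the median. On WTD the 74 genes (median -0.32) lie between the cytosolic ribosomal proteins (0.07) and the nuclear respiratory chain (-0.53), and with atorvastatin the mtDNA-encoded genes lie on both sides of 0, with 7 above and 5 below, while the median of the cytosolic ribosomal proteins was -0.31.

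Markers of several cell types differed between the groups. All 9 tested hepatocyte markers were lower on WTD (median -0.90), with summed levels of 116200 to 165600 CPM in chow, 53810 to 113400 in WTD and 63200 to 134800 in WTD+Atorvastatin mice. Of 10 macrophage markers 8 rose on WTD (median 2.46), with sums of 392 to 583, 2315 to 4339 and 1689 to 3036 CPM in the same order, and 5 fell and 1 rose with atorvastatin. With atorvastatin 5 of the 9 hepatocyte markers rose. Of 9 stellate cell and fibroblast markers 6 rose on WTD and 4 fell with atorvastatin. All 5 cholangiocyte markers and all 3 tested neutrophil markers rose on WTD, of 6 endothelial markers 2 rose and 2 fell, and of 7 lymphocyte markers 0 were called by edgeR, with 2 at an unadjusted p below 0.05. The shares called over all tested genes were 16.0% lower and 17.5% higher on WTD, and 2.26% lower and 4.84% higher with atorvastatin. In bulk tissue fewer cells of a type and less RNA per cell cannot be told apart, and the part of cell composition in the changes of the 74 genes was not tested. Without the 9 libraries that missed many weak genes, 32 of the 74 genes were lower on WTD and 0 higher, and 37 were lower in the third comparison.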

How the data were processed

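Liver RNA of 42 mice was sequenced by the authors from polyadenylated RNA in strand-specific libraries, aligned to GRCm38 with STAR (2.5 in the submitters' processing notes) and the GENCODE vM19 annotation, and assigned to genes with HTSeq 0.6.1p1. The deposited values are counts of read pairs per gene, without normalization. The authors' trimming tool is given without a version.

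Gene symbols and positions came from GENCODE vM21 on GRCm38, in which 54409 of 54446 identifiers were found. The 5 summary lines of HTSeq were left out. Genes with enough counts (filterByExpr, minimum count 10, total 15) entered edgeR 4.0.16 (R 4.3.3) with TMM factors and a robust quasi-likelihood fit, in which all 42 mice formed 1 model of 3 groups and no covariate. Benjamini-Hochberg adjustment ran over 15574 genes, with calls under 0.01. Intervals are 95% intervals from 1.96 standard errors. Alternatives were DESeq2 1.42.0, limma 3.58.1 with voom and sample weights, other scalings and filters, no robust estimation, only the 2 groups compared, a threshold of 0.05, and leaving out each mouse or the 9 libraries that missed many weak genes. The methods were tested on simulated counts. Summaries and plots used pandas 2.3.3 and matplotlib 3.10.9 under Python 3.11.15.

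Genes named in the text followed a rule of the largest falls, smallest p-values, extreme levels per kilobase and a list of fixed names. The genes and lists were chosen with earlier results of these data known, so no set test was run. Replicates are separate mice.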

Additional observations from a re-analysis of the deposited data

Results flagged for a closer look

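In the chow group, 1 mouse stood apart from the other 9 for 18 of 72 named genes, by a gap of more than 0.466 of the whole range of the group. Chance flags about 1 in 20 groups. The groups of 16 mice were not tested in this way. Among the 74 mitoribosomal protein genes these were Mrpl47 (0.4549 CPM, lowest, replicate 5, next 11.75), Mrps16 (12.97 CPM, lowest, replicate 2, next 20.83), Mrps18a (49.13 CPM, highest, replicate 5, next 37.15), Mrps2 (15.52 CPM, lowest, replicate 2, next 32.22), Mrps26 (52.89 CPM, highest, replicate 2, next 32.89). Among the other named genes they were Aurkaip1 (95.92 CPM, highest, replicate 6, next 71.08), Cs (217.1 CPM, highest, replicate 1, next 175.9), Dap3 (35.07 CPM, lowest, replicate 2, next 52.43), Gfm2 (90.13 CPM, highest, replicate 5, next 68.43), Hcfc1 (4.854 CPM, lowest, replicate 2, next 34.18), Hspa9 (380.9 CPM, lowest, replicate 2, next 480), Mterf1a (18.08 CPM, highest, replicate 2, next 6.673), Polg2 (5.119 CPM, lowest, replicate 6, next 11.57), Polrmt (8.367 CPM, lowest, replicate 2, next 27.55), Ppargc1a (17.41 CPM, highest, replicate 6, next 10.79), Ppargc1b (14.46 CPM, highest, replicate 5, next 9.043), Ptcd3 (51.86 CPM, highest, replicate 2, next 38.98), Rbfa (62.41 CPM, highest, replicate 9, next 45.48). Most of these values came from replicates 2, 5 and 6, whose libraries missed 57.3%, 43.1% and 24.4% of the genes at 1 to 2 CPM. The part of this in the values was not tested.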

How the results depend on the processing

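Under total-count scaling, added after the data were seen, WTD against chow called 4 of the 74 genes lower and 3 higher (7 in all) with a median of -0.0060 and 25 genes of the companion lists. WTD+Atorvastatin against WTD then called 6 lower (6 in all) with a median of -0.21 and 17 companions, against 0 and 11 with TMM, and WTD+Atorvastatin against chow 18 lower (18 in all) with a median of -0.23. A threshold of 0.05 added 1 higher gene on WTD and gave 18 companions with atorvastatin against WTD. In that comparison limma-voom called 2 higher (2 in all) and 20 companions, and leaving out the 9 libraries 1 lower (1 in all). The lower gene without the 9 libraries was Mrpl12 (-0.30, edgeR adjusted p = 0.0037), which was also called without WTD+Atorvastatin replicate 8 alone. Fewer samples enter that fit. The cause was not tested for any of these alternatives. The other alternatives kept the counts within 1.5 times of the reported ones.

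Leaving out 1 mouse at a time gave 28 (without chow replicate 2) to 37 lower genes for WTD against chow, with medians of -0.35 to -0.31 and 37 to 45 companions. For WTD+Atorvastatin against WTD it gave 0 to 1, medians of -0.066 to -0.029 and 9 to 14, and for WTD+Atorvastatin against chow 34 to 43, medians of -0.40 to -0.35 and 26 to 33. All 42 such fits called 24 of the 35 genes lower on WTD, and 4 of them, Mrpl15, Mrpl18, Mrps25 and Mrps27, were called under all 12 alternatives.

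Total-count scaling changed the sign of 29 of the 74 fold changes for WTD against chow, of 24 for WTD+Atorvastatin against WTD and of 14 for WTD+Atorvastatin against chow, among them the called Mrpl1 and Mrpl30 in the first, where the called companion Hars2 changed sign too. Of the genes named by rule, the following changed sign. In WTD against chow these were Oxa1l at -0.011, Mrps18c at -0.10 and Mrps28 at -0.17 with limma-voom. With total-count scaling the values were Chchd1 at 0.087, Esrra at 0.061, Gabpa at 0.063, Gfm1 at 0.16, Hars2 at 0.0077, Hspa9 at 0.24, Lrpprc at 0.25, Nrf1 at 0.23, Polrmt at 0.23, Ppargc1a at 0.13, Ptcd3 at 0.044, Rcc1l at 0.13, Tars2 at 0.083, Tfam at 0.099, Yy1 at 0.082, Mrpl19 at 0.061, Mrpl47 at 0.13, Mrps18a at 0.28, Mrps18b at 0.12, Mrps2 at 0.024 and Mrps30 at 0.27. Without the 9 libraries the values were Oxa1l at -0.024, Mrps18a at 0.045, Mrps18c at -0.037 and Mrps28 at -0.071. With 1 mouse left out the ranges were Oxa1l -0.0031 to 0.078, Mrps18a -0.079 to 0.038, Mrps28 -0.044 to 0.15 and Mrps30 -0.12 to 0.017. In WTD+Atorvastatin against WTD these were Gadd45gip1 at -0.015, Phb2 at -0.018, Mrpl10 at -0.035, Mrps27 at -0.0026 and Mrps36 at -0.044 with DESeq2. With limma-voom the values were Dap3 at 0.028, Gadd45gip1 at -0.0056, Mrpl47 at 0.027, Mrpl55 at 0.0064 and Mrps28 at 0.032. With RLE the values were Gadd45gip1 at -0.015, Phb2 at -0.018, Mrpl10 at -0.035, Mrps27 at -0.0028 and Mrps36 at -0.043. With upper-quartile scaling the values were Phb2 at -0.0011, Mrpl10 at -0.018 and Mrps36 at -0.028. With the missed share as covariate the values were Mtg1 at 0.018, Mrpl14 at 0.051, Mrps12 at 0.0064 and Mrps36 at -0.039. With total-count scaling the values were Esrra at -0.067, Gadd45gip1 at -0.14, Gatb at -0.056, Hsd17b10 at -0.10, Mrm3 at -0.061, Oxa1l at -0.031, Phb2 at -0.13, Polrmt at -0.067, Ptcd3 at -0.089, Rbfa at -0.092, Tfam at -0.072, Tufm at -0.076, Mrpl10 at -0.16, Mrpl15 at -0.025, Mrpl18 at -0.072, Mrps18b at -0.025, Mrps27 at -0.13, Mrps36 at -0.16 and Mrps7 at -0.11. With only the 2 groups compared the values were Mrpl10 at -0.0015 and Mrps36 at -0.010. Without the 9 libraries the values were Gadd45gip1 at -0.029, Mtg1 at 0.061, Mrpl14 at 0.051, Mrps27 at -0.088 and Mrps36 at -0.073. With 1 mouse left out the ranges were Gadd45gip1 -0.022 to 0.11, Myc -0.12 to 0.013, Mrpl10 -0.027 to 0.068, Mrpl14 -0.094 to 0.0053, Mrps25 -0.067 to 0.033, Mrps27 -0.019 to 0.074, Mrps30 -0.14 to 0.0038 and Mrps36 -0.081 to 0.082. In WTD+Atorvastatin against chow these were Yy1 at -0.051 and Mrps23 at -0.024 with limma-voom. With no filter the values were Gabpa at 0.0087 and Polrmt at 0.015. With a filter of 10 counts in 10 mice the values were Polrmt at 0.00071. With the missed share as covariate the values were Tfam at 0.0015, Yy1 at -0.016 and Mrps28 at 0.012. With total-count scaling the values were Gabpa at 0.14, Polrmt at 0.16, Tfam at 0.027, Mrps18a at 0.016, Mrps18b at 0.098, Mrps18c at 0.014, Mrps2 at 0.081, Mrps28 at 0.096 and Mrps30 at 0.042. Without the 9 libraries the values were Yy1 at -0.087 and Mrps18b at 0.021. With 1 mouse left out the ranges were Gabpa -0.080 to 0.095, Polrmt -0.11 to 0.050, Mrps18c -0.29 to 0.11, Mrps23 -0.0012 to 0.072 and Mrps28 -0.16 to 0.031.

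No paired analysis was possible because the numbers of the mice only name them and pair no mice across groups. The chow mice are labelled AZ and the mice of the other groups Gen, and what these labels stand for is not given. In both comparisons with chow, a difference tied to the labels cannot be told apart from the diet. Polyadenylated bulk RNA, 1 time point and libraries that missed weak genes limit what can be told of single weak genes such as Mrps18c.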
